A study of Mus musculus with 18 samples.

Results

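The libraries described here are those of N2A cells (Neuro-2a, a mouse neuroblastoma line of neural crest origin) that received Zfp598 siRNA A or Scramble siRNA A. They are 6 of the 18 libraries of the series, chosen by their labels alone, with 3 libraries for each siRNA. The series as a whole holds 6 siRNAs, 2 each against Fmr1 and Zfp598 and 2 Scramble controls. All cells were harvested 72 h after transfection with Lipofectamine RNAiMAX, and total RNA was sequenced after depletion of ribosomal RNA. The controls had therefore also taken up an siRNA. The cells are an established line rather than neurons, and the 3 libraries of a group are transfections of 1 siRNA in triplicate. The labels do not say that they are separate cultures grown on different days, so the p-values measure spread between libraries. In the main edgeR fit that spread was estimated across all 18 libraries, not from these 6 alone.

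Zfp598 encodes the mouse form of ZNF598, a ubiquitin ligase that binds ribosomes that have collided on an mRNA. It marks small subunit proteins with ubiquitin, after which other factors split the ribosomes, dispose of the nascent chain and degrade the mRNA in no-go decay. The study asked which transcripts increase when this early step is depleted. The comparison of Zfp598 siRNA A with Scramble siRNA A gives the answer for 1 of its reagents, across 19050 genes that passed a filter on low counts. Values are CPM, counts scaled to a common library size, and fold changes are on the log2 scale with positive values for genes higher with Zfp598 siRNA A.

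Total counts ran from 7674724 to 13360908 in the Zfp598 siRNA A libraries and from 12151589 to 14692028 in the Scramble siRNA A libraries. A feature listed as ENSMUSG00000118642 has no entry in the GENCODE release used here for annotation. In Zfp598 siRNA A replicates 1, 2 and 3 it held 5.67%, 15.2% and 25.8% of all counts. Its share was 11.1%, 5% and 8.83% in the Scramble siRNA A libraries and 5.4% to 7.93% in the other 12. This feature was removed before any value below was computed. The genes annotated as rRNA took 0.723% of the counts of Zfp598 siRNA A replicate 1 and at most 0.282% of any other library. Each library of the group thus stood apart in some way, and the spread within it was the widest of the 6 groups. The median SD of log2 CPM was 0.223 for Zfp598 siRNA A, 0.142 for Scramble siRNA A and 0.097 to 0.103 for the rest, over 11701 genes.

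**Figure D1:**
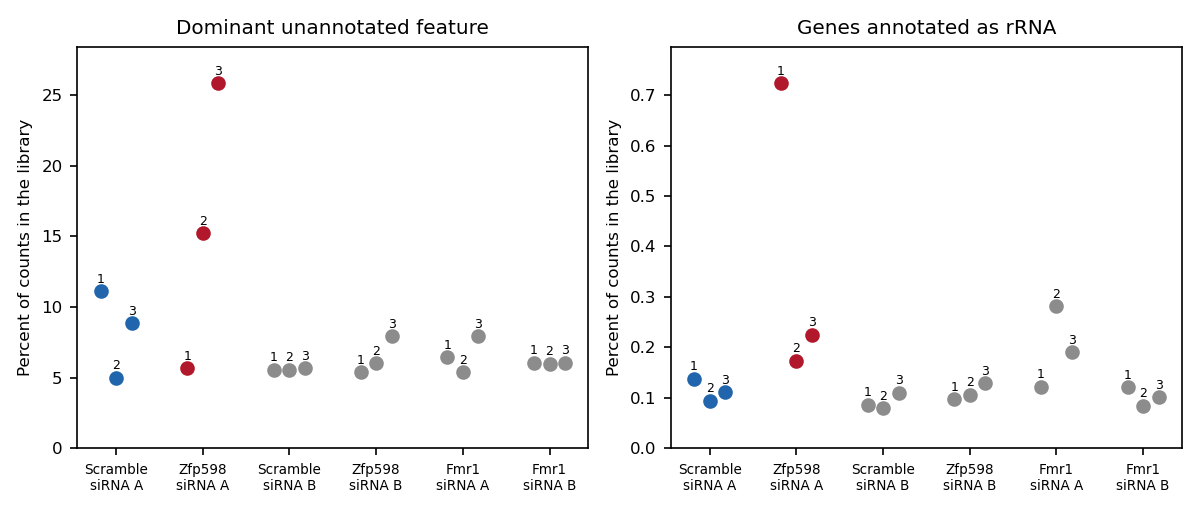
Percent of each library's counts taken by the unannotated feature (left) and by genes annotated as rRNA (right), with 1 point per library, numbered by replicate, for the 6 groups. Zfp598 siRNA A replicates 2 and 3 reach 15.2% and 25.8% on the left, and replicate 1 reaches 0.723% on the right.

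The controls also differed among themselves. Between Scramble siRNA A and Scramble siRNA B, 2191 of the 19050 genes were higher in A and 1811 lower, together 21%, at an adjusted p under 0.05 in edgeR. The main results are therefore given beside their values in Scramble siRNA B or with all 6 Scramble libraries as controls. The sympathoadrenal identity of the cells was present in all 6 libraries. The 11 markers of that lineage summed to 1604 to 1972 CPM with Zfp598 siRNA A and to 1747 to 1931 CPM with Scramble siRNA A. Markers of fibroblasts, immune, endothelial, epithelial, glial and pluripotent cells summed to at most 46.1 CPM for any type, and none passed the adjusted p.

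The targeted transcript was lower in every knockdown library. Zfp598 (ENSMUSG00000041130, GRCm39 chr17:24888631-24900993, plus strand) had 34.8, 44.5 and 52.8 CPM in Zfp598 siRNA A replicates 1 to 3 and 129.7, 112.7 and 138.9 CPM in the Scramble siRNA A libraries. The groups did not overlap. Its mean fell from 127 ± 13.3 to 44.1 ± 9.01 CPM (SD, n = 3 libraries each), a 2.92-fold decrease. The log2 fold change was -1.55 (SE 0.123, Benjamini-Hochberg adjusted p = 1e-07 in edgeR's quasi-likelihood test). A two-sided exact permutation test of 3 against 3 values gave p = 0.1, the smallest that this design allows. With siRNA B the change was -1.51, and the effects of the siRNAs did not differ by the test of the difference (adjusted p = 0.917). The library with the least Zfp598 mRNA was replicate 1, which also had the lowest share of the unannotated feature.

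Across all tested genes, 118 rose and 148 fell by more than 2-fold at an adjusted p under 0.05, which is 0.619% and 0.777% of the 19050. With the adjusted p alone, 1064 rose (5.59%) and 1044 fell (5.48%). Protein-coding genes made up 59 of the 118 and 106 of the 148. Many of these genes were scarce: the mean over the 6 libraries reached 50 counts for 48 of the 118 and 54 of the 148. In 99 of the 118 and 147 of the 148, the 3 knockdown values did not overlap the 3 control values, against 9.11% of all tested genes on the high side and 11.4% on the low side. These genes were chosen on the same values, so the lack of overlap is given as a description only. The spread shared with the other 12 libraries mattered for the numbers of genes called or past the adjusted p. When only the 6 libraries were fitted, 20 genes rose and 32 fell by more than 2-fold, and 112 passed the adjusted p. In that fit no list described below had more than 2 members past it.

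**Figure D2:**
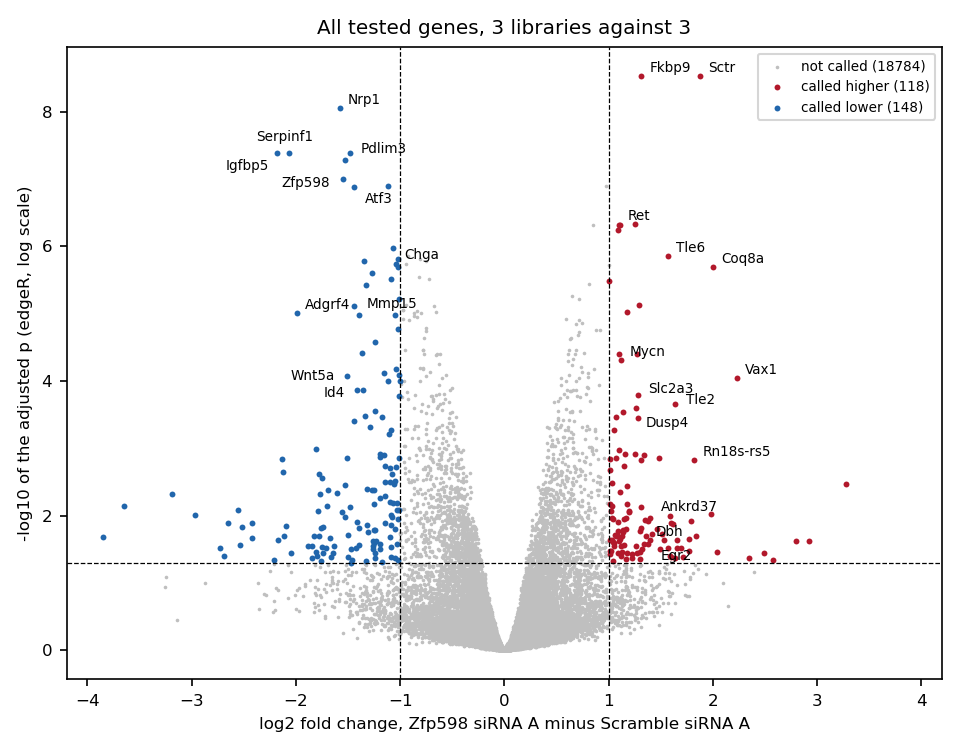
Each of the 19050 tested genes by its log2 fold change (x axis, Zfp598 siRNA A minus Scramble siRNA A) and the -log10 of its edgeR adjusted p (y axis, a log scale), with dashed lines at 2-fold and at an adjusted p of 0.05. Sctr and Fkbp9 stand highest among the 118 genes called higher, and Nrp1, Igfbp5, Serpinf1 and Pdlim3 lead the 148 called lower.

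Igfbp5, a secreted binding protein for insulin-like growth factors (chr1:72897091-72914043, minus strand), had 23.7, 16.1 and 14.1 CPM with Zfp598 siRNA A and 73.1, 95.4 and 81.7 CPM with Scramble siRNA A. It fell 4.52-fold (log2 fold change -2.18, SE 0.163, edgeR adjusted p = 4.13e-08). Serpinf1, which encodes the secreted factor PEDF, had 4.56, 4.87 and 4.82 CPM against 19.7, 19.7 and 20.2 CPM and fell 4.19-fold. The replicates of each group were almost identical for Serpinf1. Adgrf4, an adhesion G protein-coupled receptor, fell from 11.8, 11.2 and 10.6 CPM to 2.68, 2.90 and 2.89 CPM, a log2 fold change of -1.99 (adjusted p = 9.93e-06). Against all 6 Scramble libraries these 3 genes fell by 1.71, 1.71 and 1.47 on the log2 scale and stayed past the adjusted p. Scramble siRNA B held 33.5 to 42.3 CPM of Igfbp5, 10.2 to 12.8 CPM of Serpinf1 and 4.19 to 4.81 CPM of Adgrf4. Each of these ranges lay between both siRNA A groups.

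Nrp1, the semaphorin and VEGF co-receptor neuropilin 1, had 35.7, 32.9 and 32.2 CPM with Zfp598 siRNA A and 99.9, 96.1 and 106 CPM with Scramble siRNA A, a log2 fold change of -1.58 (edgeR adjusted p = 8.8e-09). The Scramble siRNA B libraries had only 24.0, 24.6 and 24.4 CPM of Nrp1, fewer than any Zfp598 siRNA A library. Pdlim3, an actinin-associated LIM protein, showed the same order, with 15.2, 13.5 and 17.5 CPM against 39.7, 41.6 and 45.7 CPM in Scramble siRNA A and 11.3, 10.9 and 10.2 CPM in Scramble siRNA B. Olfml3, a secreted olfactomedin-domain protein, had 14.7, 15.8 and 13.5 CPM against 45.6, 41.7 and 40.4 CPM, and 12.4 to 12.9 CPM in Scramble siRNA B. For these 3 genes the knockdown libraries lay between the Scramble groups, and with all 6 Scramble libraries as controls none of them passed (adjusted p = 0.185 for Nrp1, 0.228 for Pdlim3 and 0.134 for Olfml3). Wnt5a, a ligand of noncanonical Wnt signalling, fell from 13.4, 11.1 and 12.5 CPM to 2.77, 4.52 and 6.55 CPM (log2 fold change -1.51, adjusted p = 8.48e-05), and also passed with all 6 Scramble libraries (-1.30, adjusted p = 0.00193). Against the same Scramble siRNA A libraries, Wnt5a was also lower with Fmr1 siRNA A (log2 fold change -1.65).

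Gm55276, Gm55094 and Mir6236, all annotated as microRNAs, rose by 3.28, 2.8 and 2.49 on the log2 scale, and each was highest in replicate 1. Gm55094 had 50.7, 1.51 and 2.31 CPM with Zfp598 siRNA A and 1.82, 3.26 and 3.17 CPM with Scramble siRNA A. The genes described next had a mean of at least 50 counts and groups that did not overlap. Those that rose furthest among them are of mixed function. Vax1, a homeobox transcription factor of the ventral forebrain and eye (chr19:59154619-59158488, minus strand), had 11.1, 15.8 and 30.1 CPM with Zfp598 siRNA A and 4.02, 2.53 and 5.19 CPM with Scramble siRNA A. It rose 4.70-fold (log2 fold change 2.23, SE 0.312, edgeR adjusted p = 9.13e-05), and its value was highest in replicate 3. Coq8a, a mitochondrial protein needed for coenzyme Q synthesis, rose from 4.11, 2.46 and 3.10 CPM to 10.2, 13.5 and 15.2 CPM, a 4-fold increase. Sctr, the receptor for the hormone secretin (chr1:119934615-119991268, plus strand), had 75.4, 87.4 and 92.5 CPM against 25.8, 22.8 and 20.8 CPM. It rose 3.67-fold (log2 fold change 1.88, SE 0.111, edgeR adjusted p = 2.93e-09). Scramble siRNA B held 60, 62.2 and 51.3 CPM of Sctr, between both siRNA A groups. Against both Scramble siRNAs together the log2 fold changes were 2.21 for Vax1, 1.16 for Coq8a and 1.07 for Sctr, all past the adjusted p.

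Tle2 and Tle6, members of the Groucho family of transcriptional corepressors, rose by 1.64 and 1.57 on the log2 scale. Tle6 had 30.3, 46.9 and 41.8 CPM with Zfp598 siRNA A and 14.5, 12.2 and 13.2 CPM with Scramble siRNA A (edgeR adjusted p = 1.39e-06). Tle2 had 6.67, 8.35 and 10.6 CPM against 2.68, 2.39 and 2.94 CPM (adjusted p = 0.000218). The annotated ends of these genes overlap on opposite strands (chr10:81410395-81427475 and chr10:81426738-81436907), and the strand setting of the counting is not given in the sources used here, so reads from the overlap cannot be told apart. Mturn, a regulator of neural progenitor differentiation, had 10.3, 9.39 and 15.4 CPM against 4.88, 4.85 and 3.87 CPM and rose by 1.34. Ankrd37, a target of hypoxia-inducible factor, had 12.0, 17.2 and 6.36 CPM against 6.03, 4.27 and 3.64 CPM. It rose by 1.40, with replicate 3 only just above the controls.

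Rn18s-rs5, annotated as an 18S rRNA sequence, had 7827, 2155 and 3299 CPM with Zfp598 siRNA A and 1577, 973 and 1225 CPM with Scramble siRNA A. Its log2 fold change was 1.82 (adjusted p = 0.00149), and replicate 1 stood far above the others. Because rRNA was depleted before sequencing, this value also carries the efficiency of that step, whose part in the change was not tested.

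Several genes outside these were chosen for description after their values were seen. Ret, the receptor tyrosine kinase for GDNF-family ligands, had 1761, 1663 and 1839.5 CPM with Zfp598 siRNA A and 875, 820.5 and 755 CPM with Scramble siRNA A, and rose 2.15-fold (edgeR adjusted p = 4.76e-07). Ngfr, the p75 neurotrophin receptor, had 159, 197 and 272 CPM against 105, 88.3 and 98.5 CPM and rose 2.14-fold (adjusted p = 4.01e-05). Ryk, a Wnt-binding receptor of the tyrosine kinase family, had 80.8, 92.4 and 121 CPM against 42.3, 40.1 and 40.7 CPM. These 3 receptors were higher in every knockdown library than in any control, and passed with all 6 Scramble libraries as well, at 0.67, 0.99 and 0.82 on the log2 scale. Sun2, a nuclear envelope protein, rose by 1.00, and Cavin2, a caveolar coat protein, by 1.18.

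Fkbp9, a prolyl isomerase of the endoplasmic reticulum, had 89.7, 89.1 and 98.5 CPM against 38.3, 35.7 and 37.9 CPM, a log2 fold change of 1.31 (edgeR adjusted p = 2.93e-09). Scramble siRNA B held 91.6, 94.1 and 97.9 CPM of Fkbp9, as much as the knockdown libraries. Tmem170b and Rbm18 behaved likewise, with log2 fold changes of 1.11 and 1.09 that became 0.55 and 0.49 with all 6 Scramble libraries (adjusted p = 0.0937 and 0.153). On the low side, Peg10, an imprinted gene derived from a retrotransposon, had 189.8, 173 and 156 CPM against 404, 475 and 379 CPM and fell 2.42-fold. Unc80, a subunit of the sodium leak channel complex, had 60.4, 52.5 and 49.3 CPM against 113, 129 and 113 CPM and fell 2.18-fold. Both passed with all 6 Scramble libraries, at -0.82 (adjusted p = 0.0487) and -0.92 (adjusted p = 0.00039). Scramble siRNA B alone held 193.1, 233.5 and 154.2 CPM of Peg10, which overlap the knockdown values. It held 85.3, 81.2 and 93.4 CPM of Unc80, between both siRNA A groups. Klf4, a zinc finger transcription factor, fell by 1.12 and Stmn4, a neuronal microtubule regulator, by 1.01, and only Klf4 passed with all 6 Scramble libraries (adjusted p = 0.00387 against 0.291).

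**Figure D3:**
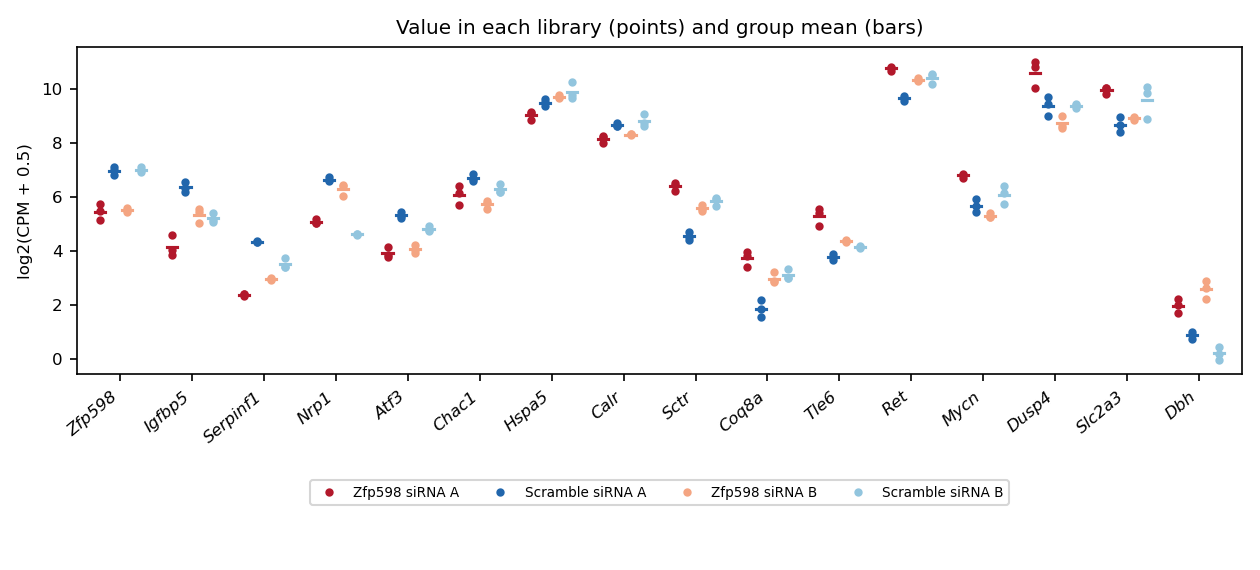
log2(CPM + 0.5) of 16 genes in each library (points) with group means (bars) for the siRNA A groups and, beside them, the siRNA B groups. Zfp598 falls with both siRNAs, while Nrp1 is high in Scramble siRNA A (96.1 to 106 CPM) and low in Scramble siRNA B (24.0 to 24.6 CPM).

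Of the 4 transcripts that the study followed up, 2 passed the adjusted p with siRNA A in these RNA-seq libraries, and both rose. The paper picked its candidates from RNA-seq data pooled over the siRNAs of each target. From RT-qPCR on repeated knockdowns, it reports increases of all 4 with each independent siRNA. It also reports greater stability of all 4 mRNAs after Zfp598 knockdown. Id3, an inhibitor of basic helix-loop-helix transcription factors, had 6.91, 9.97 and 10.4 CPM with Zfp598 siRNA A and 6.41, 4.56 and 4.88 CPM with Scramble siRNA A (log2 fold change 0.76, SE 0.204, edgeR adjusted p = 0.0193). Replicate 1 was just above the highest control. Dbh, dopamine beta-hydroxylase, the enzyme that makes noradrenaline, had 3.50, 2.78 and 4.24 CPM against 1.34, 1.52 and 1.16 CPM and rose 2.56-fold (adjusted p = 0.0115). Both rose further with siRNA B, by 1.88 for Id3 and 3.07 for Dbh, and the difference between the siRNAs passed the test for each (adjusted p = 0.00752 and 0.0157). Without replicates 2 and 3, neither passed (adjusted p = 0.457 for Id3 and 0.0617 for Dbh).

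Map3k8, a kinase upstream of MEK and ERK, had 0.813, 0.464 and 0.578 CPM against 0.0957, 0.507 and 0.464 CPM, and Tbr1, a T-box transcription factor of cortical neurons, had 0.0813, 0.232 and 0.771 CPM against 0.0957, 0.362 and 0.0774 CPM. The groups overlapped for both, and neither passed (edgeR adjusted p = 0.41 and 0.727). The Zfp598 siRNA A libraries held only 3 to 10 counts of Map3k8 and 1 to 4 counts of Tbr1. These are too few for the test to decide whether either transcript changed with siRNA A. Both passed with siRNA B, at 2.41 for Map3k8 (adjusted p = 0.00225) and 2.74 for Tbr1 (adjusted p = 0.000956), while the test of the difference between the siRNAs did not pass for either (adjusted p = 0.155 and 0.159). Fmr1, which encodes FMRP, the RNA-binding protein lost in fragile X syndrome, had 80.8, 76.1 and 60.7 CPM against 64.4, 60 and 55.9 CPM and did not pass (log2 fold change 0.28, adjusted p = 0.123).

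Of 35 tested genes of no-go decay and ribosome quality control, 1 rose and 4 fell, Zfp598 included, where 5.59% of all tested genes rose and 5.48% fell. The median log2 fold change of the list was 0.01, against 0 over all tested genes. Beside Zfp598 itself, the genes that fell were Edf1, which binds collided ribosomes, by 0.70, N4bp2, a candidate endonuclease of no-go decay, by 0.35, and Impact, an inhibitor of the kinase GCN2, by 0.28. Usp21, a deubiquitinase that acts on the same ribosomal proteins, rose by 0.54. Edf1 had 17.1, 14.3 and 16.6 CPM with Zfp598 siRNA A, 20.9, 30.8 and 26.0 CPM with Scramble siRNA A, and 15.9 to 19.5 CPM in Scramble siRNA B. None of the 9 tested genes of ribosome splitting and rescue, the 7 of nascent chain disposal or the 3 of translation repression passed the adjusted p.

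Of 53 genes of the general mRNA decay machinery, 7 rose and 2 fell (median 0.05), against 5.59% and 5.48% of all tested genes. Among those that rose were Exosc5, a subunit of the exosome, by 0.75 and Lsm3, of the ring that assists decapping, by 0.63. Dcp2, the decapping enzyme, had 77.4, 74.0 and 67.1 CPM against 114, 96.4 and 103 CPM and fell by 0.51. Dcp2 also fell against all 6 Scramble libraries, by 0.59 (edgeR adjusted p = 0.00133), while Lsm3 did not pass (adjusted p = 0.904).

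The groups of genes that moved together most often to the low side were those of the stress responses of translation and of the endoplasmic reticulum. ATF4 is the transcription factor made when initiation factor eIF2 is phosphorylated, and it raises genes of amino acid supply and tRNA charging. The unfolded protein response raises chaperones of the endoplasmic reticulum through ATF6 and XBP1. Of 36 tested members of the ATF4 list, 14 fell and 0 rose (median -0.16), and of 26 of the endoplasmic reticulum list, 12 fell and 1 rose (median -0.32), against 5.48% of all tested genes that fell.

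Atf3, a stress-induced transcription factor of that pathway, had 13.3, 14 and 17.5 CPM with Zfp598 siRNA A and 38.7, 37.0 and 43.7 CPM with Scramble siRNA A, and fell 2.71-fold (log2 fold change -1.44, edgeR adjusted p = 1.3e-07). Nupr1, a stress-induced chromatin protein, fell from 16.1, 21.1 and 18.3 CPM to 9.11, 8.23 and 12.0 CPM. Chac1, which degrades glutathione, had 51.8, 70.5 and 85.0 CPM against 95.7, 102 and 117 CPM and fell by 0.62. For Atf3, Nupr1 and Chac1 every knockdown library lay below every Scramble siRNA A library. Scramble siRNA B held 72.7 to 90.3 CPM of Chac1 and 11.1 to 20.6 CPM of Nupr1, which overlap the knockdown values, and Chac1 did not pass against all 6 Scramble libraries (adjusted p = 0.0866). Of the remaining members, Eif4ebp1 (-0.61), Ddit3 (-0.56), Slc7a11 (-0.53), Sesn2 (-0.41), Cth (-0.41) and Mthfd2 (-0.39) fell, as did 3 of the 7 tRNA synthetases tested, Aars1, Wars1 and Tars1. Slc7a11, the cystine transporter, had 32.1, 28.0 and 30.8 CPM against 36.5, 49.9 and 44.4 CPM.

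In the endoplasmic reticulum list, Dnajb11, a co-chaperone, fell by 0.76 and Manf, a secreted chaperone-like factor, by 0.71. Hspa5, the chaperone BiP, had 469, 569 and 552 CPM against 793, 661 and 741 CPM and fell by 0.47 (edgeR adjusted p = 0.02). Calr, the lectin chaperone calreticulin, had 306, 298 and 257 CPM against 398, 427 and 402 CPM and fell by 0.51 (adjusted p = 0.0022). No library of one group entered the range of the other for either gene. Pdia3, Pdia6, Hyou1, Xbp1, Atf6, Derl1, Derl2 and Herpud1 fell by 0.27 to 0.36, and Edem1 rose by 0.46.

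Summed over the endoplasmic reticulum list, the level was 4547, 4629 and 4637 CPM with Zfp598 siRNA A and 5623, 5524 and 5575 CPM with Scramble siRNA A. The ATF4 list summed to 8323, 10516 and 11065 CPM against 10773, 9807 and 11539 CPM. The groups did not overlap for the first sum and overlapped for the second. When all 6 Scramble libraries were the controls, 14 of the 26 fell and 1 rose, and 13 of the 36 ATF4 members fell and 0 rose. Without Zfp598 siRNA A replicates 2 and 3, 8 of 26 and 12 of 38 fell, and 0 rose in either list. With only the 6 libraries in the fit, 0 of 26 and 1 of 36 passed. With siRNA B the median log2 fold change was -0.33 for the ATF4 list and -0.04 for the endoplasmic reticulum list, and the effects of the siRNAs differed for 13 of 36 and 6 of 26 members, against 20.4% of all tested genes.

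The known response elements of these pathways stand in the promoters of some members and are shown because members of both lists fell. The endoplasmic reticulum stress element, read as CCAAT, 9 bases of any kind and CCACG on either strand, was found in RefSeq promoter windows from 250 bases before to 50 bases after the start of 10 of the 22 list members with a window. It was found in 0.137% of the 27025 genes with a window. Of the 8 members that fell and have a window, 3 hold it. These are Hspa5, Calr and Pdia6, printed first, followed by 3 of the 7 members that hold it and did not pass, in their own 5′ to 3′ direction with the element in capitals (reverse-complemented in Calr and Creld2):
Hspa5: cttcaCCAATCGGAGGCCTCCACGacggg
Calr: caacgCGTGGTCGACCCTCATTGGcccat
Pdia6: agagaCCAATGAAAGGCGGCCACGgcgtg
Hsp90b1: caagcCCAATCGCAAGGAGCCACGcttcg
Dnajc3: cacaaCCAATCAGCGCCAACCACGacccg
Creld2: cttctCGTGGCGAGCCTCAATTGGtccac
On GRCm39 these stretches are chr2:34662032-34662060 on the plus strand for Hspa5, chr8:85573699-85573727 on the minus strand for Calr and chr12:17316487-17316515 on the plus strand for Pdia6. The Calr and Pdia6 stretches lie upstream of every annotated transcript of the gene, and that of Hspa5 lies in an exon of a transcript that starts further upstream. Hsp90b1, Dnajc3 and Creld2 had log2 fold changes of -0.25, -0.34 and -0.20 with adjusted p = 0.0987, 0.0774 and 0.583. The 4 members not printed, Canx, Ero1b, Syvn1 and Derl3, did not pass either, and Ero1b was at 0.12.

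The element bound by ATF4 with C/EBP partners, read as TGATGNAA on either strand, was found in 9 of the 27 members of the ATF4 list with a window and in 4.51% of all genes with one. Trib3, Asns, Pycr1, Vldlr and Fgf21 hold it and were not among the members past the adjusted p. Of the 8 members that fell and have a window, 4 hold it, Atf3, Nupr1, Chac1 and Slc7a11. Their stretches, with the element in capitals and reverse-complemented in all but Slc7a11, read:
Atf3: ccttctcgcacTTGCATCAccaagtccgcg
Nupr1: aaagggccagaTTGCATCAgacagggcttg
Chac1: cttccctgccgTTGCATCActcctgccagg
Slc7a11: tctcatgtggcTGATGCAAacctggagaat
They lie at chr1:190915622-190915651 and chr7:126224734-126224763 on the minus strand, chr2:119181519-119181548 on the plus strand and chr3:50398110-50398139 on the minus strand of GRCm39. The Slc7a11 stretch lies upstream of every annotated transcript. That of Atf3 lies in an intron, and those of Nupr1 and Chac1 in an exon, of a transcript that starts further upstream. A match of these letters is a description of the window and not evidence of binding in these cells.

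Genes of the cell cycle were higher with siRNA A than in Scramble siRNA A, but not against both Scramble siRNAs. Of 48 genes of DNA replication 16 rose and 1 fell (median 0.30), and of 33 genes of mitosis 12 rose and 0 fell (median 0.31), against 5.59% of all tested genes that rose. The replication genes included 9 of the 16 that license and fire origins, such as Mcm3, a subunit of the replicative helicase, which had 49.8, 76.2 and 81.5 CPM against 40.5, 30.5 and 43.7 CPM. Mcm3 rose by 0.84, Gins2, of the same helicase, by 0.86 and Pold1, a replicative polymerase, by 0.82. Among mitotic genes, Cenpa, the centromeric histone, had 61.7, 63.3 and 63.0 CPM against 35.3, 37.8 and 41.8 CPM and rose by 0.71. Top2a, the topoisomerase of dividing cells, had 771, 717 and 646 CPM against 434, 477 and 488 CPM and rose by 0.61, and Aurkb, a mitotic kinase, rose by 0.84.

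The Scramble siRNA B libraries held 943, 908 and 983 CPM of Top2a and 69.7, 62.2 and 66.1 CPM of Cenpa, at or above the knockdown libraries. Against all 6 Scramble libraries, 1 replication gene rose and 2 fell (median -0.13) and 0 mitotic genes rose and 1 fell (median -0.12). With siRNA B, the medians of both lists were negative, -0.15 and -0.36, and the siRNAs differed for 19 of 48 and 21 of 33 members.

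Replication-dependent histone mRNAs are made in S phase and end in a stem-loop rather than a poly(A) tail. Of 51 tested, 12 rose and 0 fell (median 0.46), against 5.59% and 5.48% of all tested genes. H2ac22 had 10.8, 19.6 and 16.2 CPM against 6.89, 7.31 and 7.04 CPM and rose 2.16-fold. H2ac13 had 44.9, 70.9 and 65.9 CPM against 38.8, 20.2 and 31.2 CPM and rose 2.01-fold. The list summed to 2145, 3292 and 3559 CPM in replicates 1, 2 and 3 and to 2399, 1678 and 2237 CPM in Scramble siRNA A. Replicate 1 thus lay within the control range. Against all 6, 11 rose and 1 fell, and without replicates 2 and 3 only 2 rose. Histone genes are near-identical copies, so reads may have been split between them or lost.

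Cytosolic ribosomal protein mRNAs followed the same libraries. Of 78 tested, 10 rose and 2 fell (median 0.13), where 5.59% and 5.48% of all tested genes did. Rps2 (0.99), Rps6 (0.99) and Rps4x (0.94), all of the small subunit, rose most. Rps2 had 3216, 5844 and 7150.3 CPM with Zfp598 siRNA A and 3371, 1864 and 2898 CPM with Scramble siRNA A, so that replicate 1 lay inside the control range. Summed over the 78 genes the level was 47580.5, 65531 and 66515 CPM against 50785.5, 40477 and 47591.5 CPM. The libraries with the higher sums, replicates 2 and 3, are those in which the unannotated feature took 15.2% and 25.8% of the counts. A fit with the log2 share of that feature as a term is given below for the genes called. The part of the feature in the sums was not tested for replicates 2 and 3. Without them 0 of 78 rose and 0 fell (median -0.02). Rpl23 and Rpl26 fell by 0.59 and 0.58.

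Of 64 nuclear genes of oxidative phosphorylation 6 fell and 1 rose (median -0.07), against 5.48% and 5.59% of all tested genes. Against all 6 Scramble libraries 3 fell and 5 rose. Cycs, which encodes cytochrome c, had 20.7, 15.5 and 12.5 CPM against 30.3, 51.9 and 30.1 CPM and fell 2.25-fold (edgeR adjusted p = 0.000348). Cox5b fell by 0.64 and Atp5mc2 by 0.53. Of 12 mitochondrially encoded mRNAs only mt-Nd2 rose, by 0.92, with 414, 1314 and 875 CPM against 339, 509 and 526 CPM, and its replicate 1 lay in the control range. Among 45 translation factors Eif2s3x, a subunit of eIF2, rose by 0.70 and Eif4h by 0.46, and Eif4g3 fell by 0.28. Proteasome subunits fell in 4 of 31 cases, including Psmc5 (-0.53) and Psmc4 (-0.52), and Psmb1 rose by 0.52.

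Of 30 genes of ERK signalling and the immediate-early response, 10 rose and 1 fell (median 0.34), against 5.59% and 5.48% of all tested genes. Among those that rose were 6 of the 11 feedback and upstream genes. With siRNA B the median of the list was -0.61, and the siRNAs differed for 19 of the 30. Dusp4, a phosphatase that inactivates ERK, had 1048, 1809 and 2078 CPM with Zfp598 siRNA A and 843, 514 and 698 CPM with Scramble siRNA A and rose 2.40-fold (edgeR adjusted p = 0.000251). Dusp6 rose by 0.69, and the pathway inhibitors Spry1, Spry2, Spry4 and Spred1 by 0.37 to 0.65. Of the immediate-early transcription factors, Egr1 rose by 1.03, Egr2 by 1.40 and Maff by 1.03, whereas Jun fell by 0.97. Egr1 had 83.5, 74.0 and 46.8 CPM against 31.3, 37.4 and 32.3 CPM, but 117, 189.9 and 76.3 CPM in Scramble siRNA B, and its log2 fold change was -0.24 with all 6 Scramble libraries. Against all 6, Dusp4 was at 1.27 (adjusted p = 0.000198), and 3 of the 30 rose and 0 fell. Without replicates 2 and 3 Dusp4 was at 0.61 and did not pass (adjusted p = 0.0721).

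Among genes of BMP and TGF-beta signalling, 6 of 27 rose and 2 fell, against 5.59% and 5.48% of all tested genes. Smad4, the shared mediator, had 210.5, 234 and 264 CPM against 162, 144 and 146 CPM and rose by 0.65, also with all 6 Scramble libraries (0.61, edgeR adjusted p = 0.0002). Id4, an inhibitor of the same family as Id3, had 9.76, 13.1 and 13.9 CPM against 31.8, 28.4 and 35.9 CPM and fell 2.66-fold. Scramble siRNA B held 6.89, 5.37 and 6.69 CPM of Id4, below the knockdown libraries, and with all 6 Scramble libraries Id4 did not pass (adjusted p = 0.422).

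Genes that define the sympathoadrenal lineage rose in 4 of 18 cases and fell in 1 (median 0.28). Over all tested genes, 5.59% rose and 5.48% fell. Mycn, the oncogenic transcription factor of neuroblastoma, had 106, 114 and 116 CPM with Zfp598 siRNA A and 61.1, 50.5 and 43.5 CPM with Scramble siRNA A, and rose 2.17-fold (edgeR adjusted p = 4.87e-05). It fell with siRNA B, by 0.80. Tbx2, a T-box factor, rose by 0.64 and Dbh by 1.35, while Sox11 fell by 0.37. Against all 6 Scramble libraries, 7 of the 18 rose and 1 fell.

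Genes of neuronal differentiation fell in 11 of 54 cases and rose in 1 (median -0.17), against 5.48% and 5.59% of all tested genes. Chga, the secretory granule protein chromogranin A, had 69.5, 69.1 and 70.6 CPM against 141, 135.7 and 152.3 CPM and fell 2.05-fold (edgeR adjusted p = 1.81e-06). Chgb fell by 0.73, the growth cone protein gene Gap43 by 0.69, and Map1b and Map2, which encode microtubule-associated proteins, by 0.51 and 0.45. Ppy, a hormone of the neuropeptide Y family, rose by 0.94, from 1.53, 1.30 and 1.78 CPM to 2.77, 2.78 and 3.47 CPM. The Scramble siRNA B libraries held 59.5 to 65.6 CPM of Chga, below the knockdown libraries. When all 6 were the controls, 5 members fell and 3 rose (median 0.02).

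Ion channel genes fell in 8 of 33 cases and rose in 2 (median -0.16), among them the sodium channels Scn2a, Scn3a and Scn8a by 0.44 to 0.52. Kcnma1, the large-conductance potassium channel, had 13.7, 8.12 and 7.71 CPM against 18.6, 25.2 and 21.3 CPM and fell 2.13-fold. Kcnh1, another potassium channel, was scarce at 0.386 to 0.651 CPM against 1.15 to 1.63 CPM and fell by 1.46. In the extracellular matrix and adhesion list 5 of 35 fell and 2 rose (median -0.13), where 5.48% and 5.59% of all tested genes did. Mmp15, a membrane-bound matrix protease, had 6.83, 9.97 and 9.06 CPM against 23.1, 20.6 and 25.5 CPM and fell 2.71-fold, and Loxl2, which crosslinks collagen, fell by 0.84. Scramble siRNA B held 8.14 to 10.9 CPM of Mmp15, and against all 6 Scramble libraries neither gene passed (adjusted p = 0.0703 for Mmp15 and 0.187 for Loxl2). Fbn1, which encodes the microfibril protein fibrillin 1, rose by 0.46.

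**Figure D4:**
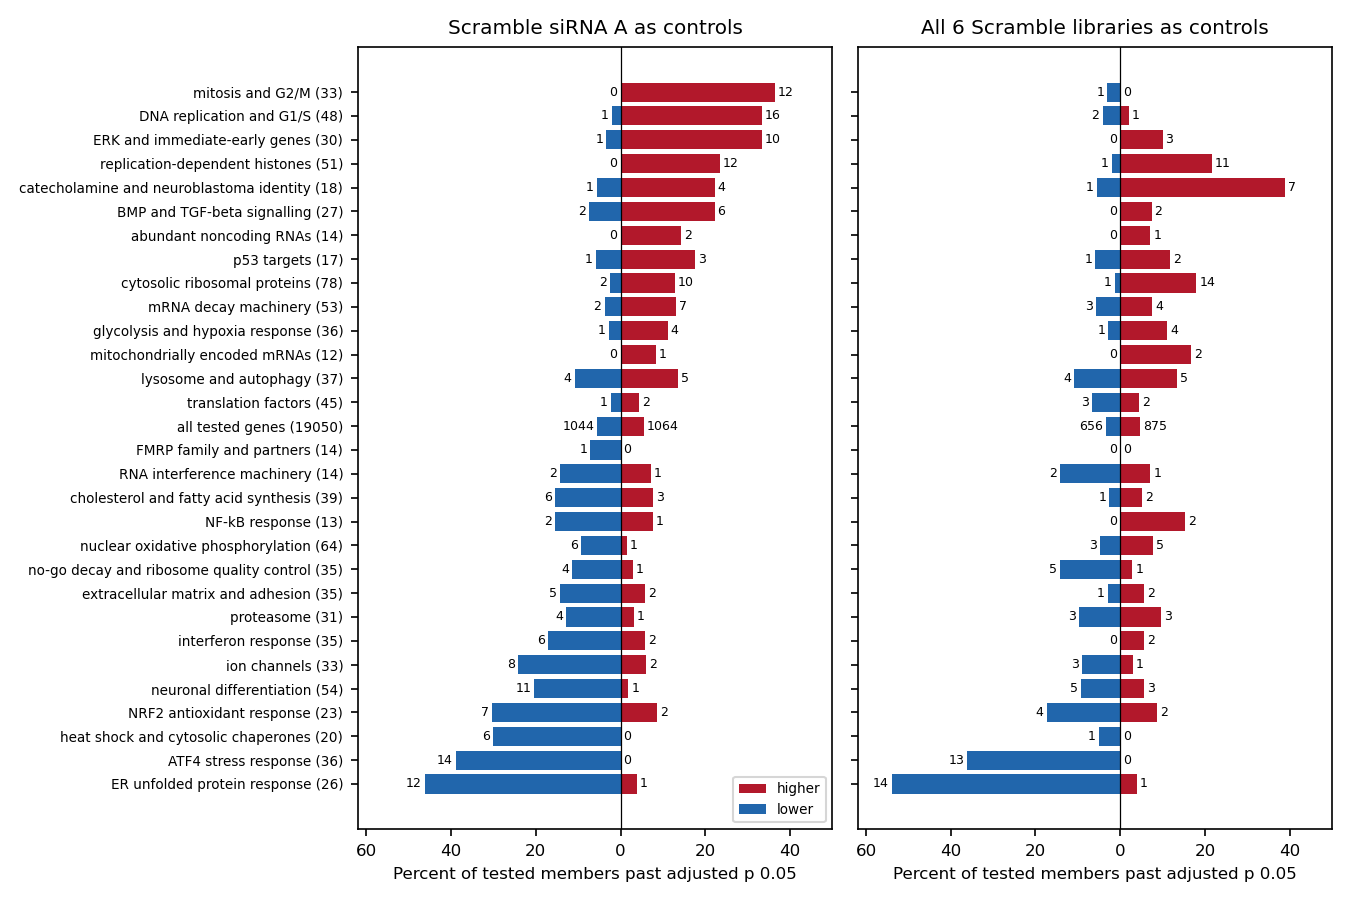
Percent of the tested members of each list that passed the edgeR adjusted p of 0.05, higher (right of 0) and lower (left of 0), with the number of genes at each bar and the number tested in brackets. Left, Scramble siRNA A as controls. Right, all 6 Scramble libraries as controls, where the endoplasmic reticulum and ATF4 lists stay on the low side (14 of 26 and 13 of 36) and the mitosis and replication lists lose their bars (0 of 33 and 1 of 48 higher).

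In other stress lists a part of the members fell, where 5.48% of all tested genes fell and 5.59% rose. Of 20 cytosolic chaperone genes 6 fell and 0 rose (median -0.25), led by Stip1, a co-chaperone, by 0.52 and Hsph1 by 0.42, and 1 of the 20 fell with all 6 Scramble libraries. Of 23 targets of the antioxidant factor NRF2, 7 fell and 2 rose (median -0.05). Nfe2l2, which encodes NRF2, fell by 0.74, Srxn1, sulfiredoxin, by 0.96 and Osgin1 by 1.69, while Fth1, the ferritin heavy chain, had 193, 197 and 196 CPM against 102, 122 and 115 CPM and rose by 0.79. Srxn1 had 15.3, 21.9 and 25.3 CPM against 37.6, 39.9 and 40.9 CPM, and 20.3 to 21.9 CPM in Scramble siRNA B, which held 147.7 to 190.5 CPM of Fth1. Against all 6 Scramble libraries Srxn1, Osgin1 and Fth1 did not pass (adjusted p = 0.119, 0.0989 and 0.056). Of 17 targets of p53 3 rose and 1 fell (median 0.02), the former Trp53inp1, Sesn1 and Ccng1, by 0.33 to 0.47, and the latter Plk3, by 0.51.

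Of 35 interferon-stimulated genes 6 fell and 2 rose (median -0.26), against 5.48% and 5.59% of all tested genes. A mean of at least 50 counts was reached by 20 of the 35. Ifit1, a sensor of viral RNA, had 0.651, 1.04 and 1.35 CPM against 2.39, 1.74 and 2.55 CPM and fell 2.34-fold. Isg15, a ubiquitin-like modifier, and Rsad2, an antiviral enzyme, fell by 0.99 and 0.86, and Mx2 rose by 0.67. Against all 6, 0 of the 35 fell and 2 rose. In the NF-kB list 1 of 13 rose and 2 fell. Tnfaip3, the inhibitory ubiquitin editor A20, had 21.2, 18 and 17.5 CPM against 12.0, 11.9 and 10.9 CPM and rose by 0.72, with a like value with all 6 Scramble libraries (0.70, edgeR adjusted p = 0.00233). Nfkb1 and Csf1 fell by 0.44 and 0.48.

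In metabolism, 4 of 36 genes of glycolysis and the hypoxia response rose and 1 fell (median 0.09), where 5.59% of all tested genes rose and 5.48% fell. Slc2a3, the neuronal glucose transporter GLUT3, had 1059, 1053 and 909 CPM with Zfp598 siRNA A and 499, 406 and 341 CPM with Scramble siRNA A and rose 2.43-fold (edgeR adjusted p = 0.000164). In Scramble siRNA B it ranged from 476 to 1087 CPM, and with all 6 Scramble libraries it did not pass (adjusted p = 0.0812). Hif1a, the hypoxia-inducible factor itself, fell by 0.60. Of 39 genes of cholesterol and fatty acid synthesis 6 fell and 3 rose (median -0.15). With siRNA B the median of this list was 0.22, and the siRNAs differed for 21 of the 39, against 20.4% of all tested genes. Elovl6, a fatty acid elongase, fell by 0.78, and Dhcr7 and Sqle, both enzymes of cholesterol synthesis, by 0.54 and 0.50. Abca1, which exports cholesterol, and Mylip, a ubiquitin ligase, rose by 0.57 and 0.55.

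Among 37 genes of lysosome and autophagy 5 rose and 4 fell, against 5.59% and 5.48% of all tested genes. The autophagy initiators Atg13 (0.69) and Ulk1 (0.64) were on the high side and Lamp1, a lysosomal membrane protein, on the low side (-0.53). In the RNA interference list 1 of 14 rose and 2 fell. Ago2, the slicer that carries the siRNA strand, had 555, 498 and 513 CPM against 729, 882 and 803 CPM and fell by 0.62, also with all 6 Scramble libraries (-0.76, edgeR adjusted p = 0.000141). Dicer1 fell by 0.26 and Sidt2, a lysosomal RNA transporter, rose by 0.52. Of 14 partners and relatives of FMRP only Mov10, an RNA helicase, passed, and it fell by 0.28. Of 14 abundant noncoding RNAs the small nucleolar RNA host Epb41l4aos rose by 0.94 and Mir17hg, the host of a microRNA cluster, by 0.51. Epb41l4aos had 63.4, 121 and 185 CPM against 78.8, 43.9 and 67.0 CPM, so its replicate 1 also lay in the control range.

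Most genes that changed by more than 2-fold with siRNA A did not do so with siRNA B, whose libraries and Scramble controls are separate. Of the 118 genes called higher, 6 were also called higher with siRNA B, which is 5.08% of the 118 and 1.12% of the 536 called with siRNA B. Those 536 are 2.81% of all tested genes. Of the 148 called lower, 8 were also called lower, which is 5.41% and 1.83% of 438, and the 438 are 2.3% of all tested genes. The shared genes were Dbh, Ndufa4l2 and 4 predicted genes on the high side, and Zfp598, Tnr, Otog, Fa2h, Osgin1, Bean1, Igdcc3 and Gm31663 on the low side. Ndufa4l2, a subunit-like protein of complex IV induced in hypoxia, rose by 1.05 with siRNA A and 1.07 with siRNA B. Tnr, a matrix glycoprotein of the brain, fell by 1.31 and 2.71, and Fa2h, which hydroxylates the fatty acids of myelin lipids, by 1.53 and 2.75.

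The direct test of the difference passed for 67 of the 118 (56.8%) and 100 of the 148 (67.6%), against 20.4% of all tested genes. The genes called with siRNA A were chosen on the siRNA A values, so this share is given as a description. Their median log2 fold change with siRNA B was -0.06 for those called higher and 0.17 for those called lower. Of the 118 genes, 6 were called lower with siRNA B, and of the 148, 21 were called higher. Pdlim3 rose by 2.20 with siRNA B, from 11.3, 10.9 and 10.2 CPM to 49.7, 51.6 and 47.9 CPM, and Nrp1 by 1.71. Egr1 fell with siRNA B by 2.86.

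**Figure D5:**
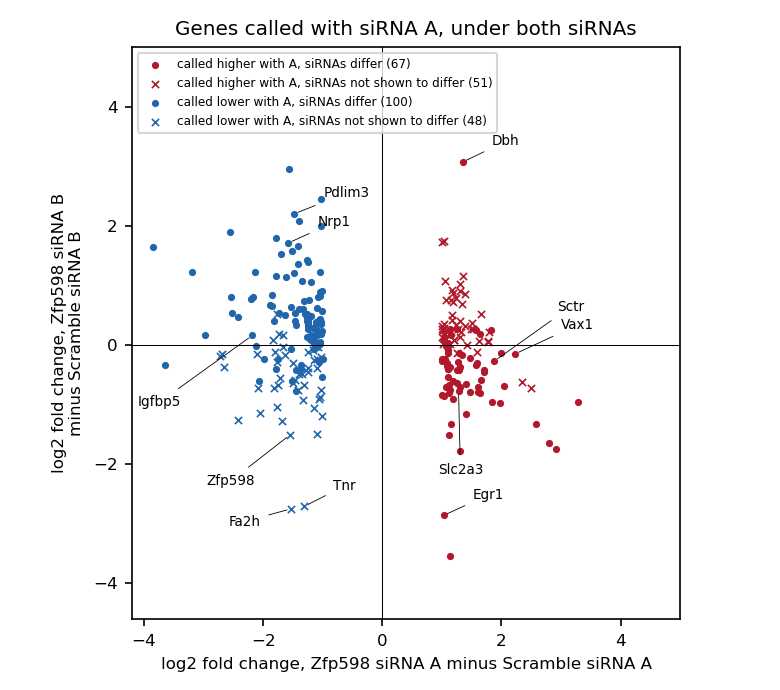
log2 fold change with Zfp598 siRNA A (x axis) and with siRNA B (y axis), each against its own Scramble siRNA, for the 118 genes called higher and 148 called lower with siRNA A. Filled points mark the 67 and 100 genes whose effects differed between the siRNAs by edgeR's test, crosses the rest, and Zfp598 lies at -1.55 and -1.51.

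The genes named by the rule given below, and those chosen after their values were seen, were each set against all 6 Scramble libraries. List members named with their change only, such as Gap43, Map1b and Spry1, are not covered here. Several of the covered genes described above passed against Scramble siRNA A but not against all 6 Scramble libraries. Beside those already given, these were Ankrd37, Edf1, Cox5b, Kcnh1, Egr2, Chga, Chgb, Eif2s3x, Eif4h, Eif4g3, Psmc5, Mir17hg, Mov10, Ifit1, Isg15, Rsad2, Csf1, Nfkb1, Plk3, Trp53inp1, Stip1, Hsph1, Abca1, Mylip, Atg13, Mcm3, Gins2, Pold1, Aurkb, Cenpa and Top2a.

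A smaller set of genes passed the adjusted p in 3 separate fits, the one reported here, the one with only the 6 libraries and the one with all 6 Scramble libraries as controls. These were 25 genes that rose, 15 of them by more than 2-fold, and 31 that fell, 14 of them by more than 2-fold. All 3 fits share the Zfp598 siRNA A and Scramble siRNA A libraries. Peg10 passed all 3 although its Scramble siRNA B values overlap the knockdown values. Those that rose were Vax1, Coq8a, Sctr, Tle2, Tle6, Mturn, Ryk, Cavin2, Mycn, Ret, Ngfr, Sun2, the monocarboxylate transporter Slc16a12, the insulin receptor substrate Irs2 and Dusp6 among others. Those that fell were Igfbp5, Serpinf1, Adgrf4, Zfp598, Atf3, Peg10, Unc80, the matricellular protein gene Ccn4, the receptor gene Calcrl and the kinase gene Irak2 among others. Of the 25 and 31, 24 and 31 also passed without Zfp598 siRNA A replicates 2 and 3. Capn6, a calpain-like microtubule protein, fell by 1.02 with siRNA A and rose by 2.45 with siRNA B. Aebp1, a matrix-associated carboxypeptidase-like protein, fell with both, by 0.92 and 1.46. Several genes named in this set also passed in edgeR when Fmr1 siRNA A was compared with the same Scramble siRNA A libraries. Adgrf4 (log2 fold change -1.93), Peg10 (-1), Serpinf1 (-0.82), Igfbp5 (-0.58) and Unc80 (-0.31) fell there too. Tle6 (1.15), Tle2 (0.96), Cavin2 (0.45) and Ngfr (0.44) rose there too. Atf3 (1.01), Mycn (-0.84), Sctr (-0.52) and Ryk (-0.33) moved the opposite way.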

How the data were processed

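Total RNA of N2A cells was sequenced after rRNA depletion. The authors deposited 1 table of raw gene counts for the 18 libraries, made, per the labels and the submitters' processing notes, with Trim Galore, FastQC, STAR and featureCounts on GRCm39. The annotation release, strand setting and handling of multi-mapping reads are not given in the sources used here. The table lists 55414 genes, 54749 of them with an annotation entry, and 18139 at 0 in every library. Feature ENSMUSG00000118642 was removed, genes were filtered with filterByExpr (minimum count 10, minimum total 15), and libraries were scaled by TMM. All 18 libraries were fitted with edgeR's quasi-likelihood test (edgeR 4.0.16, limma 3.58.1, R 4.3.3), with 1 coefficient for each of the 6 siRNAs. Benjamini-Hochberg adjustment was over the 19050 tested genes. Called means an adjusted p under 0.05 and a change over 2-fold.

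The pipeline was checked on simulated counts. Genes were named by a rule. It took Zfp598, Fmr1 and the transcripts followed up in the study, the 8 genes called in each direction with the largest change among those with a symbol, a mean of at least 50 counts and groups that do not overlap, and up to 3 members per list past the adjusted p. Other list members are named with their change only. Ret, Ngfr, Fkbp9, Ryk, Peg10, Cavin2, Sun2, Tmem170b, Rbm18, Unc80, Stmn4, Klf4, Hspa5, Pdia6 and Slc7a11, and the genes named among those held in 3 fits, were chosen after their values were seen. Members and lists were chosen with earlier results of these data known. Alternatives were other scalings (DESeq2 size factors, upper quartile), other filters, DESeq2 1.42.0, limma voom with quality weights, fewer libraries, other controls and the share of the removed feature as a term. The counts per list under these settings were added after seeing the data. Promoter sequences are RefSeq windows of the GRCm38.p6 table, whose printed stretches were each found once in GRCm39. With 3 libraries per group, total counts of 7674724 to 14692028 limit the precision for scarce genes.

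The replicate numbers were not used to pair libraries. The correlation of deviations from the group means between libraries of the same number was -0.62, -0.33 and 0.37. Between libraries of different numbers it ranged from -0.64 to 0.76, the highest for Zfp598 siRNA A replicate 1 with Scramble siRNA A replicate 2.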

Additional observations from a re-analysis of the deposited data

Results flagged for a closer look

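The effect of Zfp598 siRNA A differed from that of siRNA B by edgeR's test of the difference for many of the genes named above. Each value in brackets here is the log2 effect of siRNA A minus that of siRNA B, each against its own Scramble siRNA. Scramble siRNA A and B also differed from each other, so a difference can lie in the controls or in the knockdown libraries, and which of these it was is not separated by the value.

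The effect was lower with siRNA A by at least 1.5 for Ppy (-3.7), Pdlim3 (-3.68), Capn6 (-3.46), Nrp1 (-3.28), Id4 (-2.77), Igfbp5 (-2.34), Ifit1 (-1.97), Kcnh1 (-1.86), Adgrf4 (-1.75), Dbh (-1.72), Peg10 (-1.69), Jun (-1.66), Irak2 (-1.63), Chgb (-1.57) and Klf4 (-1.51). It was lower by 1 to 1.5 for Chga (-1.48), Serpinf1 (-1.47), Olfml3 (-1.47), Cycs (-1.45), Fbn1 (-1.36), Unc80 (-1.29), Slc7a11 (-1.29), Srxn1 (-1.26), Stmn4 (-1.25), Isg15 (-1.18), Id3 (-1.12), Dnajb11 (-1.12), Nfkb1 (-1.11), Sqle (-1.07), Kcnma1 (-1.05), Dhcr7 (-1.05), Calcrl (-1.03) and Mmp15 (-1.01). Smaller margins were those of Elovl6 (-0.96), Ccn4 (-0.96), Scn3a (-0.96), Map1b (-0.95), Hif1a (-0.93), Wnt5a (-0.9), Gap43 (-0.9), Hsph1 (-0.83), Psmc5 (-0.82), N4bp2 (-0.75), Lamp1 (-0.74), Cox5b (-0.7), Atf3 (-0.66), Psmc4 (-0.64), Edf1 (-0.63), Hyou1 (-0.63), Tars1 (-0.62), Sox11 (-0.59), Csf1 (-0.55), Map2 (-0.55), Derl2 (-0.51), Sesn2 (-0.46), Scn8a (-0.44), Eif4g3 (-0.43), Aars1 (-0.41), Herpud1 (-0.39) and Pdia3 (-0.35).

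The effect was higher with siRNA A by at least 1.5 for Egr1 (3.9), Egr2 (2.56), Vax1 (2.38), Sctr (2.15), Coq8a (2.14), Cavin2 (2.09), Ankrd37 (2.05), Slc2a3 (2.05), Mycn (1.92), Dusp4 (1.91), Maff (1.88), Slc16a12 (1.7), Fkbp9 (1.68), Ryk (1.67), Rn18s-rs5 (1.56), Top2a (1.56), Mx2 (1.54), Tmem170b (1.52) and Abca1 (1.51). It was higher by 1 to 1.5 for Tle2 (1.46), Spred1 (1.46), Dusp6 (1.42), H2ac10 (1.4), Gins2 (1.37), Tle6 (1.32), Aurkb (1.27), Sun2 (1.24), Ulk1 (1.23), Ngfr (1.23), Ret (1.19), Mcm3 (1.15), Rps6 (1.14), Spry2 (1.14), Cenpa (1.13), H2ac22 (1.13), Rps2 (1.11), Rbm18 (1.08), Spry1 (1.07), Pold1 (1.06) and Irs2 (1.04). Smaller margins on this side were those of Rps4x (0.99), Atg13 (0.99), Kcnc1 (0.97), Exosc5 (0.8), Fth1 (0.75), Eif2s3x (0.75), Spry4 (0.74), Lsm3 (0.67), Mylip (0.62), Fmr1 (0.6), Aebp1 (0.54), Ddit3 (0.53), Eif4h (0.43) and Sidt2 (0.33).

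Outside the tested genes, the removed feature ENSMUSG00000118642 held 25.8% of the counts of Zfp598 siRNA A replicate 3, above its share in every Scramble library.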

How the results depend on the processing

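Zfp598 stayed past the adjusted p under every alternative. Genes called higher and lower numbered 50 and 54 among genes with a mean of at least 50 counts, 475 and 457 at 1.5-fold, 16 and 28 in a test against 1.5-fold, and 358 and 496 with limma voom and quality weights, which passed 5030 genes and gave 6397 that differed between the siRNAs. The 6 libraries alone gave 20 and 32, with 112 past the adjusted p. Scramble siRNA B as controls gave 452 and 275, with 4682 past, and all 6 Scramble libraries gave 126 and 78. With the log2 share of the removed feature as a term, 83 were called higher and 145 lower, with 2728 past. In that fit 5633 differed between the siRNAs, and Zfp598 was at -1.73. Leaving out Zfp598 siRNA A replicates 2 and 3 gave 61 and 98, with 962 past. Dropping each of the 6 libraries in turn left 61 to 367 higher, 106 to 432 lower, 1037 to 4648 past and 3129 to 5229 that differed between the siRNAs. Without Zfp598 siRNA A replicate 1 there were 367 and 432, without its replicate 2 there were 61 and 109, and without its replicate 3 there were 76 and 137. Without Scramble siRNA A replicate 2 there were 80 and 106. A group left with 1 library is assumed to vary like the other groups. The cause of these shifts was not tested.

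The replicate numbers were not taken as pairs in the main fit. The replicate block in the 6 libraries gave 4 higher, 10 lower and 14 past the adjusted p, and with all 18 libraries it gave 124 and 154.

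Some named genes changed direction, and the cause was not tested. With Scramble siRNA B as controls the log2 fold changes were -0.3 for Aurkb, -0.07 for Cenpa, 0.15 for Chga, 0.86 for Chgb, 0.03 for Cox5b, -0.89 for Egr1, -0.2 for Egr2, -0.36 for Eif2s3x, -0.03 for Fkbp9, -0.24 for Gins2, -0.81 for H2ac10, 0.02 for Hsph1, 0.92 for Id4, 0.1 for Isg15, -0.33 for Lsm3, -0.41 for Mcm3, 0.09 for Mov10, 0.04 for Nfkb1, 0.47 for Nrp1, 0.23 for Olfml3, 0.5 for Pdlim3, 0.29 for Stmn4 and -0.41 for Top2a. All 6 Scramble libraries gave -0.24 for Egr1 and -0.2 for H2ac10. Without Zfp598 siRNA A replicates 2 and 3, mt-Nd2 was at -0.15 and Tbr1 at -1.11, and with single libraries left out Tbr1 ranged from -0.35, without Zfp598 siRNA A replicate 3, to 1.61. Of the fold changes of 113 genes, 48 lost the adjusted p with all 6 Scramble libraries and 79 with the 6 libraries alone. DESeq2, its size factors and upper quartile scaling changed neither the direction nor the passing of the adjusted p for any of them. The 2-fold criterion was not part of that comparison.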
